A study of Rattus norvegicus with 24 samples.

Results

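The genes described here are 10 transcripts of cardiac calcium handling: Ryr2, Atp2a2, Pln, Sln, Casq2, Slc8a1, Cacna1c, Cacnb2, Camk2d and Rrad. They were chosen by symbol, with their changes by treatment in these libraries already known, and all 10 are listed among the 36856 genes of each of 3 count tables. RNA was sequenced from 24 libraries in 6 groups of 4 Sprague-Dawley rats weighing 120 to 200 g. Low-salt rats ate a synthetic diet with 0.01 to 0.02% Na for 7 days, and high-salt rats ate the 0.4% Na diet that the protocol calls control. A piece of heart ventricle and the papilla (inner medulla) of the kidney were taken in this diet experiment, and no label tells whether both tissues came from the same rats. A second experiment used kidney alone: minipumps delivered aldosterone at 12 µg per day to rats that ate 0.4% Na, and control rats ate the same diet. The diet experiment asked how each tissue depends on Na intake, and the second what the hormone does in inner medulla without a change of diet.

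In a ventricular muscle cell each beat starts with calcium entry through the L-type channel, which opens the ryanodine receptor of the sarcoplasmic reticulum and releases the stored calcium that drives contraction. The calcium pump SERCA then refills the store under the control of its small inhibitor phospholamban, and the Na/Ca exchanger carries the rest out of the cell in exchange for Na. Rrad (Rad) is a small GTPase of the RGK family that binds the beta subunit of the L-type channel and holds the channel current down, and its phosphorylation by protein kinase A frees the channel during beta-adrenergic stimulation.

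Promoter sequences from RefSeq (GRCr8), each running from 250 bases before the annotated start to 50 bases after it, were found for 8 of the 10 genes. Casq2 and Pln are shown first as genes whose transcripts were almost confined to the heart, and Atp2a2 and Camk2d as genes also measured well in kidney. Capitals in Casq2 (chr2:192214306-192214605, plus strand) mark a match to the consensus of the muscle factor MEF2 and a steroid receptor half-site TGTTCT. Pln (chr20:33172244-33172543, plus strand) held none of the motifs searched. Capitals in Atp2a2 (chr12:39733269-39733568, plus strand) and Camk2d (chr2:217698301-217698600, plus strand) mark GC boxes, GGGCGG or its reverse complement CCGCCC.
Casq2: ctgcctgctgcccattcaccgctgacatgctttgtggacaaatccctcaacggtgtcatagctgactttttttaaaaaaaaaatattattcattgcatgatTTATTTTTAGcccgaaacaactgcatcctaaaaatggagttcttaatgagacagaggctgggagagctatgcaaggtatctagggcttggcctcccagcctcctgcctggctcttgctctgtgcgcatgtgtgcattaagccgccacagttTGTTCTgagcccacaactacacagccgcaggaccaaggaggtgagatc
Pln: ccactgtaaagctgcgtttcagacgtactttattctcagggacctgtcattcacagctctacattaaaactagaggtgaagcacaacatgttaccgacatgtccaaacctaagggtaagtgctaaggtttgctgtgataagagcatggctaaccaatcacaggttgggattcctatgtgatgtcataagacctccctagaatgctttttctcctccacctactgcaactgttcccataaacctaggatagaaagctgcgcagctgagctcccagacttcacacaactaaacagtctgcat
Atp2a2: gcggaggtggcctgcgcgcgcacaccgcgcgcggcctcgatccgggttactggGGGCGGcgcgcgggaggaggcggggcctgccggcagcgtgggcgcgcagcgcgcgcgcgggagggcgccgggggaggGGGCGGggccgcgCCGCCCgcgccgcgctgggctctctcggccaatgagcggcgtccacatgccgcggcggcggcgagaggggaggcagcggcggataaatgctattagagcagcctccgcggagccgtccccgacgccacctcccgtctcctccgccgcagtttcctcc
Camk2d: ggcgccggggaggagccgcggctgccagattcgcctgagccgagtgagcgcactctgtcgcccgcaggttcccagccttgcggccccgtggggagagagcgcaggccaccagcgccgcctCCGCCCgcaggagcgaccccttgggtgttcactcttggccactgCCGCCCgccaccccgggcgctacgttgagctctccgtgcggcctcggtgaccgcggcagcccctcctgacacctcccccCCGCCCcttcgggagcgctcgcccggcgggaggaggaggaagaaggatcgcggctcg
The GC content was 47.7% in Casq2 and 45.0% in Pln, against 79.0% in Atp2a2 and 74.7% in Camk2d, and the median over 33469 windows of the same length was 51.7%. Atp2a2 and Camk2d had 3 GC boxes each, and 33.1% of all windows held at least 1. The half-site was in 20.7% of all windows and the MEF2 consensus in 3.3%, counting both strands. The pattern did not hold across the set: Ryr2, also near 0 in kidney, had 73.0% GC and 3 GC boxes, and Slc8a1, present in both tissues, had 36.3% GC. TATAAA was in none of the genes' windows, against 14.2% of all windows, and the half-site of cyclic AMP response elements, TGACG, was in those of Slc8a1, Cacna1c and 1 of 2 for Cacnb2, against 21.2% of all. These matches describe letters in a window and say nothing on binding.

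The smallest library held 24299423 counts and the largest 38318764. At 1 CPM (counts scaled to a common effective library size) a gene had 24 counts or more in each. The summed level of 8 ventricular muscle cell markers was 69278 to 90922 CPM in low-salt and 75358 to 81560 CPM in high-salt hearts, and 1.00 to 5.63 CPM in the kidney groups. The rats are labelled female, but all 16 libraries of the diet experiment had at most 0.0913 CPM of Xist, the RNA of the inactive X chromosome, and 144 to 275 CPM over 4 Y-linked genes. The 8 libraries of the aldosterone experiment had 239 to 454 CPM of Xist and 0.0346 to 0.319 CPM over the Y-linked genes. By these transcripts the diet libraries read as male and the aldosterone libraries as female, so sex and experiment cannot be told apart. High-salt heart replicate 2 held 83.8 CPM of the thick ascending limb markers Umod and Slc12a1, against 0 to 6.09 CPM in the other heart libraries, and 32.2 CPM of collecting duct markers, against 0.197 to 2.89 CPM. Heart fold changes of Rrad, Pln, Casq2, Atp2a2, Ryr2 and Slc8a1 are therefore also given without that library. Those of the other genes are not given without it. Red cell transcripts varied widely in heart, at 16930, 53812, 18787 and 41635 CPM in low-salt hearts and 29666, 32298, 8687 and 2145 CPM in high-salt hearts, and their part in the results was not tested. In pieces of tissue, fewer cells of a type and less RNA per cell cannot be told apart.

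**Figure D1:**
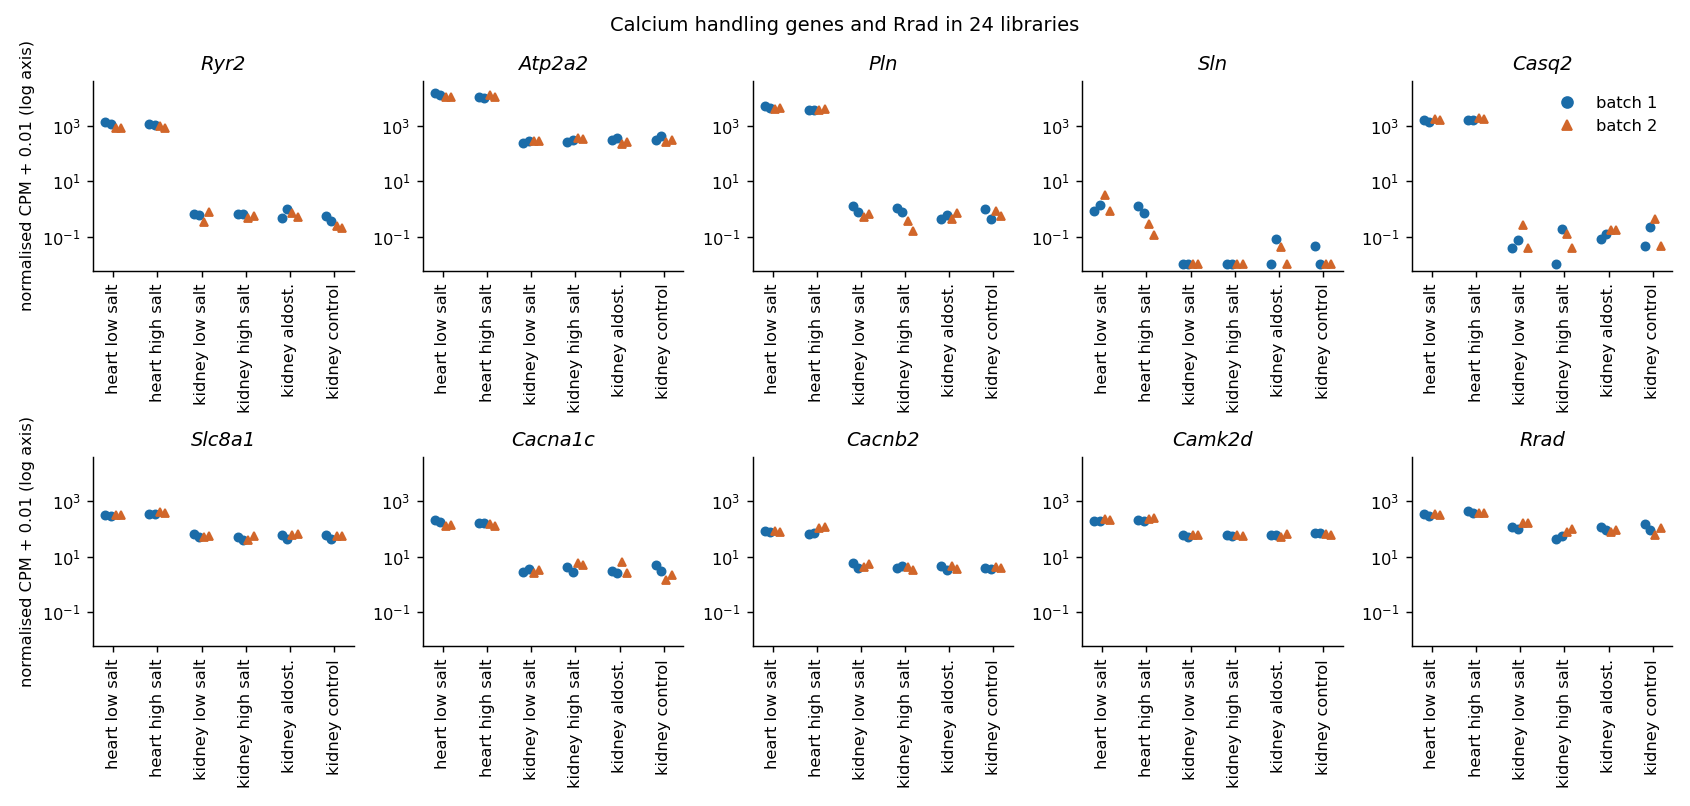
Normalised CPM plus 0.01 on a log axis for each of the 10 genes in 24 libraries, 1 point per library, circles for batch 1 and triangles for batch 2. All 10 genes lay higher in the 8 heart libraries than in any kidney library, by a small margin for Sln and over wide gaps for Ryr2, Pln and Casq2.

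The set divided by how much of it the kidney held. Each table was scaled on its own, so the tissues were compared after common scaling of the 16 diet libraries, and tissue and table cannot be told apart. Casq2, the calcium buffer of the cardiac store, was 30684-fold higher in heart than in kidney on low salt and 39133-fold on high salt. Pln, which encodes phospholamban, was 10159-fold and 12428-fold higher, and Ryr2, the cardiac release channel, 3375-fold and 3320-fold. These 3 are thus close to absent from the papilla, with Casq2 between 0 and 0.435 CPM in the 16 kidney libraries. Sln, which encodes the pump inhibitor sarcolipin, was listed at 0 in all 8 kidney libraries of the diet experiment.

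The other 6 genes were clearly measured in kidney. The L-type channel pore gene Cacna1c was 100.5-fold higher in heart on low salt and 65.5-fold on high salt, and its beta subunit gene Cacnb2 32.0-fold and 42.7-fold. Atp2a2, which encodes the heart's calcium pump and, by splicing, a form found in most cells, was 84.5-fold and 66.5-fold higher in heart, and gene-level counts do not separate these forms. The exchanger gene Slc8a1 was 10.3-fold and 15.0-fold higher, and Camk2d, the main cardiac isoform of the calcium/calmodulin kinase, 6.62-fold and 7.38-fold. Rrad had a ratio of 4.65 on low salt and 10.96 on high salt, the largest shift of the ratio with diet among the 9 genes that had one.

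In heart, Rrad was lower on low salt in every library. It stood at 355, 297, 341 and 326 CPM in low-salt hearts, against 438, 371, 388 and 388 CPM in high-salt hearts. The groups did not overlap, although low-salt replicate 1 came close to the lowest high-salt library. The means were 330 ± 24.8 CPM in low-salt and 396 ± 29.0 CPM in high-salt hearts (SD, n = 4 each), a log2 fold change of -0.26 ± 0.08 (SE). The difference was -0.31 in batch 1 and -0.22 in batch 2. Rrad did not pass an adjusted p of 0.05 over all genes in heart (edgeR quasi-likelihood test, Benjamini-Hochberg adjusted p 0.295), and its log2 fold change was -0.30 without high-salt replicate 2 (adjusted p 0.495).

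In kidney, Rrad was higher on low salt, the opposite direction. It stood at 117, 103, 160 and 159 CPM in low-salt kidneys, against 42.3, 58.3, 76.6 and 98.0 CPM in high-salt kidneys. The groups did not overlap, the lowest low-salt value lying just above the highest high-salt one, and in both diets batch 2 was above batch 1. The means were 135 ± 29.4 CPM in low-salt and 68.8 ± 24 CPM in high-salt kidneys (SD, n = 4 each). The fitted log2 fold change was 1.00 ± 0.12 (SE), a 1.995-fold difference, and the batch differences were 1.13 and 0.88. The edgeR adjusted p over 18449 genes was 0.0169, rank 36 by p. Rrad was chosen with this contrast known, so the p and rank describe it and do not test it. The call was lost without low-salt replicate 3 (log2 1.02, adjusted p 0.0533), high-salt replicate 2 (1.07, 0.0556) or high-salt replicate 3 (0.95, 0.0576), and the fold moved little. Some kidney cell markers moved with diet too: edgeR called Slc14a2, 1 of 4 collecting duct markers, lower (1074 ± 153 CPM in low-salt and 1892 ± 387 CPM in high-salt kidneys) and Emcn, 1 of 5 endothelial markers, lower (86.5 ± 19.1 CPM in low-salt and 145 ± 24.2 CPM in high-salt kidneys). No other marker of these lists was called, and 1 collecting duct and 2 endothelial markers had positive log2 fold changes. The collecting duct markers summed to 7450 to 10509 CPM in low-salt and 9519 to 12390 CPM in high-salt kidneys, and the endothelial markers to 218 to 366 CPM in low-salt and 307 to 432 CPM in high-salt kidneys. Smooth muscle and pericyte markers summed to 30.1 to 43.0 CPM in low-salt and 42.5 to 51.6 CPM in high-salt kidneys. Of those tested, 2 were positive and 2 negative, and edgeR called 0. The part of all these markers in the Rrad values was not tested.

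Aldosterone on 0.4% Na gave no such difference. Rrad stood at 119, 89.3, 76.5 and 94.2 CPM in aldosterone kidneys and at 146, 95.1, 63.1 and 107 CPM in control kidneys. The control group spanned the whole range of the aldosterone group, and the means were 94.7 ± 17.7 CPM with the hormone and 103 ± 34.3 CPM without it (SD, n = 4 each). The log2 fold change was -0.10 ± 0.20 (SE; edgeR adjusted p 0.891), and the difference from the diet response was not tested.

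**Figure D2:**
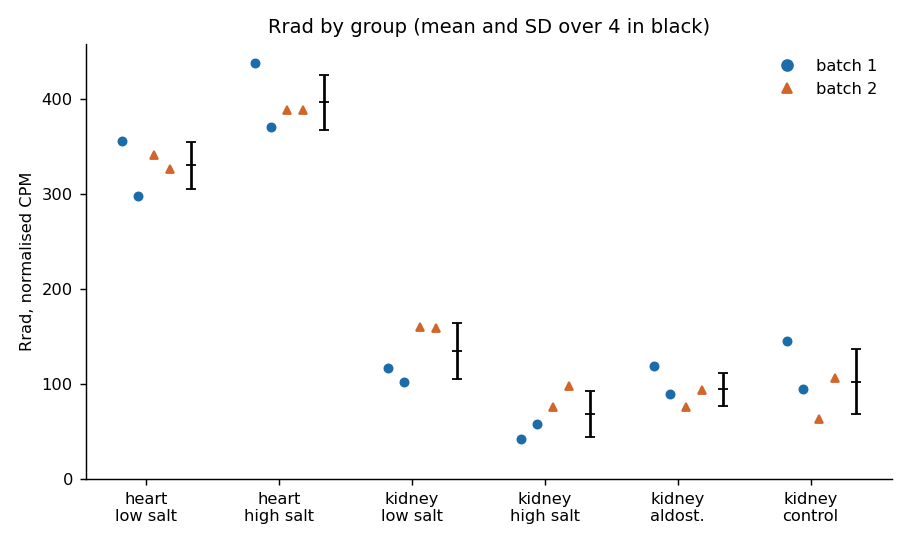
Rrad in normalised CPM by group, 1 point per library with the mean and SD over 4 in black, circles for batch 1 and triangles for batch 2. Low-salt hearts lie below high-salt hearts, low-salt kidneys above high-salt kidneys, and the aldosterone and control kidneys overlap.

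The diet responses of Rrad in the 2 tissues differed by -1.27 ± 0.16 on the log2 scale (heart minus kidney, SE), with an edgeR adjusted p of 0.0103 and rank 4 of 19408 genes. The fit took the 16 libraries as independent, though no label tells whether both tissues came from the same rats. Tissue and table cannot be told apart in it. Of all genes in that fit, 0.830% were called, and 0.376% with the lower value in heart. Rrad was chosen from the contrasts that make up this difference, so the value describes it. It was past the threshold in 16 of 16 fits that left out 1 library, at -1.37 to -1.15, and was -1.24 with an adjusted p of 0.0869 without a batch term. Among the other 7 genes tested in both tissues, Slc8a1 had -0.54 ± 0.17 (adjusted p 0.160) and Cacna1c 0.57 ± 0.24 (0.275), and none was called. Kidney levels of Rrad were not ordered across the 2 experiments, which were scaled apart and differed in Xist and Y-linked transcripts. The ranges of the 2 hearts did not overlap, nor did those of low-salt and high-salt kidneys.

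The other RGK genes were measured at low levels in heart, and how their responses differ from that of Rrad was not tested. Gem averaged 1.65 ± 0.26 CPM in low-salt and 1.88 ± 0.59 CPM in high-salt hearts, and 12.3 ± 5.81 CPM in low-salt and 14.7 ± 6.69 CPM in high-salt kidneys (SD, n = 4 each). Rem1 averaged 9.82 ± 2.37 and 11.3 ± 0.83 CPM in low-salt and high-salt hearts, with a log2 fold change of -0.22 ± 0.12 (SE). Neither was called in any comparison, and Rem2 was too low to test in heart. All 3 RGK genes tested in heart had negative log2 fold changes, but Rrad among them was chosen with this contrast known. Gem had -0.16 ± 0.23 (SE), with 0.04 in batch 1 and -0.29 in batch 2. For Rem1 the batch differences were -0.42 and -0.004. The kidney log2 fold changes were -0.24 ± 0.38 for Gem, 0.31 ± 0.16 for Rem1 and -0.13 ± 0.22 for Rem2.

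Across the set, the heart responses were small. None of the 10 genes was called by edgeR or by DESeq2, which gave no adjusted p for Sln. Over all 15473 genes tested in heart, edgeR called 2 higher (0.0129%) and 6 lower (0.0388%), together 0.0517%, and DESeq2 called 1.96%. With the replicate number as a block in place of batch, edgeR called 0 genes. At an unadjusted p under 0.05, 1 of the 10 was higher (Pln) and 3 were lower (Rrad, Slc8a1 and Casq2), against 10.6% of all genes in either direction. Rrad and Slc8a1 had no overlap between diets, against 4.72% of all genes. The median log2 fold change was -0.05 over the 10 genes and -0.01 over all genes, and since the set was chosen with these contrasts known, nothing is read from its counts.

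**Figure D3:**
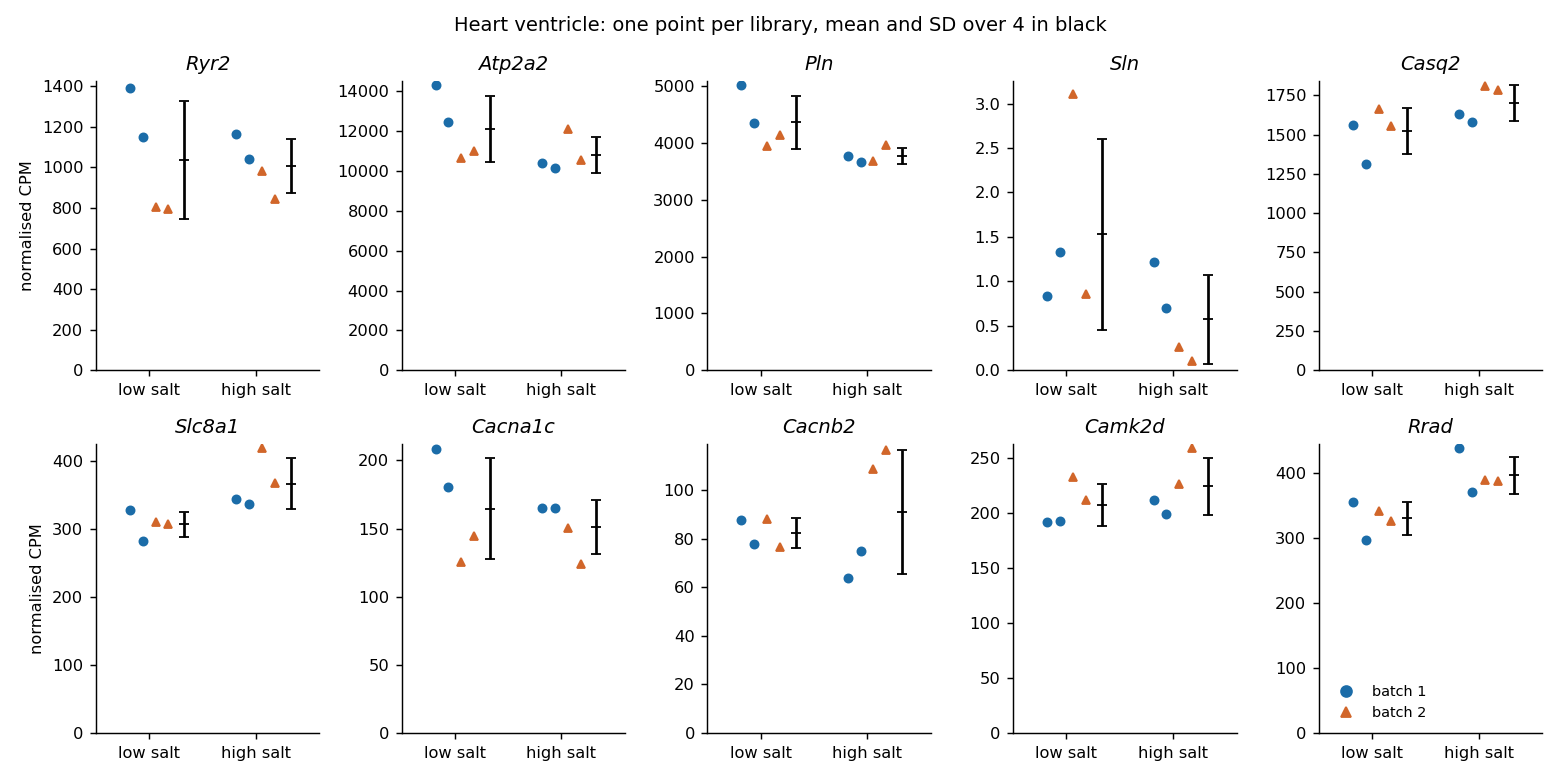
Normalised CPM of each gene in the 8 heart libraries, with the mean and SD over 4 in black, circles for batch 1 and triangles for batch 2. Slc8a1 and Rrad show no overlap between diets, and Ryr2, Atp2a2, Pln and Cacna1c have their highest point in low-salt replicate 1.

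Without high-salt replicate 2 the heart log2 fold changes were 0.17 for Pln, -0.17 for Casq2, 0.10 for Atp2a2, -0.06 for Ryr2 and -0.28 for Slc8a1, and edgeR called 1 gene of all.

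For calcium entry, the channel genes had no common direction. Cacna1c stood at 208, 180, 125 and 144 CPM in low-salt hearts, against 165, 165, 150 and 124 CPM in high-salt hearts. The groups overlapped, and the log2 fold change was 0.10 ± 0.09 (SE; edgeR adjusted p 0.727). Cacnb2, whose product is the docking site of Rrad, stood at 87.5, 78.0, 88.2 and 76.4 CPM in low-salt hearts, against 63.7, 74.9, 109 and 117 CPM in high-salt hearts. Its high-salt libraries split by batch, so that the low-salt difference was 0.26 in batch 1 and -0.45 in batch 2. The ratio of Rrad to Cacna1c within a library was 1.65 to 2.72 in low-salt hearts and 2.24 to 3.14 in high-salt hearts, with overlap.

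For the store, Casq2 was lower on low salt by a small step in both batches, and Ryr2 had no direction. Casq2 stood at 1561, 1315, 1664 and 1553 CPM in low-salt hearts, against 1633, 1578, 1813 and 1785 CPM in high-salt hearts. Replicate 3 on low salt lay inside the high-salt range, and the log2 fold change was -0.16 ± 0.07 (SE; edgeR adjusted p 0.450), with -0.16 in each batch. Ryr2 stood at 1394, 1149, 803 and 794 CPM in low-salt hearts, against 1163, 1044, 980 and 843 CPM in high-salt hearts. In both diets the 2 libraries of batch 1 were above the 2 of batch 2, and the fold change of 0.01 ± 0.11 combined 0.20 in batch 1 with -0.19 in batch 2.

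For uptake, Pln was higher on low salt with a margin that narrowed in batch 2. It stood at 5022, 4351, 3944 and 4135 CPM in low-salt hearts, against 3765, 3659, 3686 and 3972 CPM in high-salt hearts. Only low-salt replicate 3 lay within the high-salt range. The means were 4363 ± 470 CPM in low-salt and 3770 ± 142 CPM in high-salt hearts (SD, n = 4 each), a log2 fold change of 0.21 ± 0.08 (SE; edgeR adjusted p 0.406), with 0.33 and 0.08 in the batches. Atp2a2 stood at 14301, 12440, 10646 and 11029 CPM in low-salt hearts, against 10392, 10137, 12108 and 10551 CPM in high-salt hearts. Both low-salt libraries of batch 1 were above all high-salt libraries, and both of batch 2 were within their range, giving 0.38 and -0.06. The ratio of Pln to Atp2a2 was 0.350 to 0.375 on low salt and 0.304 to 0.376 on high salt, and high-salt replicate 3 was the lowest.

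Sln was scarce in these ventricle samples. Its libraries held 21, 36, 104 and 26 counts on low salt and 33, 22, 8 and 3 counts on high salt. Sln passed the count filter through the low-salt group, where its mean was higher, so nothing is read from its p. The means were 1.53 ± 1.07 CPM in low-salt and 0.57 ± 0.50 CPM in high-salt hearts (SD, n = 4 each), and the log2 fold change of 1.59 ± 0.75 (SE; edgeR adjusted p 0.494) became 0.17 when batch 1 was fitted alone and 3.37 when batch 2 was. It was 0.89 without low-salt replicate 3, the library with 104 counts, and 0.89 to 2.11 over the 8 fits that left out 1 library. In rodent hearts sarcolipin is mainly an atrial protein, and 6 atrial markers summed to 9.65 to 16.3 CPM in low-salt hearts and 8.59 to 60.1 CPM in high-salt hearts. Their part in the values of Sln was not tested.

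For extrusion, Slc8a1 was lower in every low-salt heart. It stood at 327, 283, 310 and 307 CPM in low-salt hearts, against 344, 336, 418 and 368 CPM in high-salt hearts. The gap between the groups was narrow, and high-salt replicate 3 was the highest. The means were 307 ± 18.3 CPM in low-salt and 367 ± 37.0 CPM in high-salt hearts (SD, n = 4 each), a log2 fold change of -0.25 ± 0.07 (SE; edgeR adjusted p 0.293), with -0.16 and -0.35 in the batches. In kidney its direction was the other way, at 56.7 ± 8.35 CPM in low-salt and 46.5 ± 7.12 CPM in high-salt kidneys (0.29 ± 0.14, adjusted p 0.300). Camk2d, which phosphorylates the release channel and phospholamban, averaged 207 ± 19.3 CPM in low-salt and 224 ± 26.0 CPM in high-salt hearts (-0.11 ± 0.06, adjusted p 0.574).

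**Figure D4:**
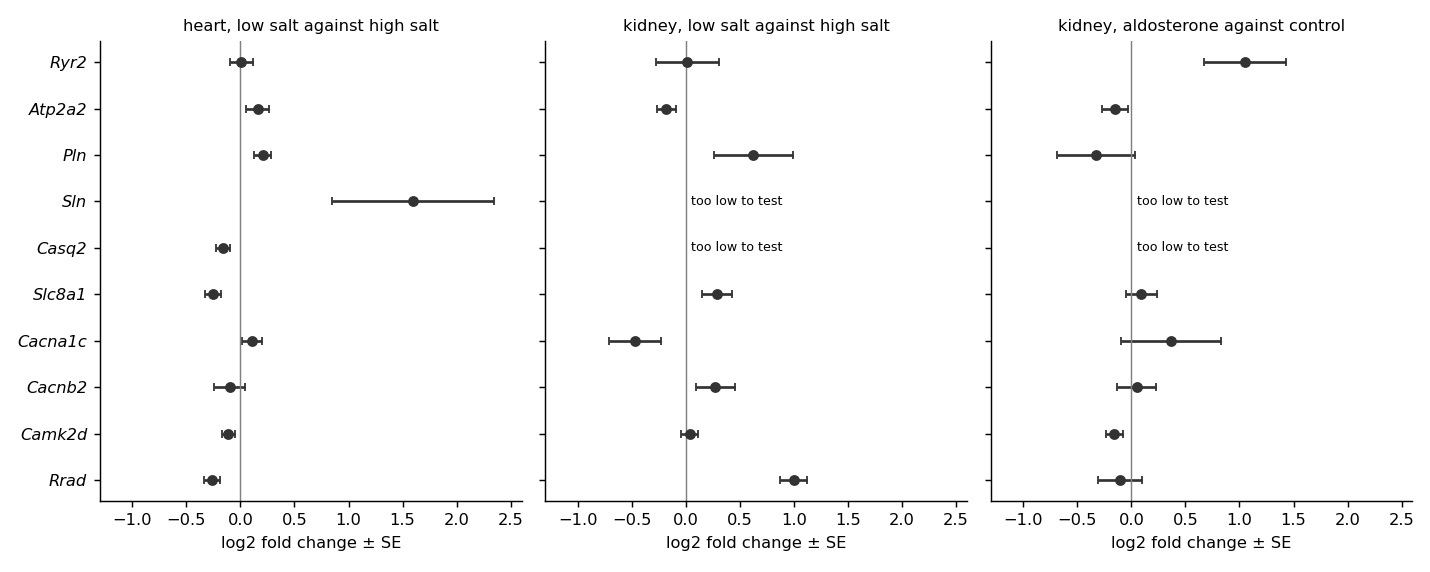
Log2 fold change with its SE for each gene in the 3 comparisons, with genes too low to test marked. Rrad in kidney on low salt, at 1.00 ± 0.12, is the only value that edgeR called. Its heart value is -0.26 and its aldosterone value -0.10. Sln in heart (1.59 ± 0.75) and Ryr2 with aldosterone (1.05 ± 0.38) lie higher with wider SE.

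In kidney on low salt, Rrad was the only one of the 8 genes tested that edgeR called. Over all genes, 1.09% were called higher there and 1.37% lower, 2.46% in either direction. DESeq2, which also called Rrad alone among the 8 (adjusted p 1.07e-10) and gave no adjusted p for 2 of them, called 9.19% of all genes, and 19.6% had an unadjusted p under 0.05. Rrad was also the only one without overlap, against 11.4% of all genes. Since the set was chosen with this contrast known, these counts and p-values are a description. Casq2 and Sln were too low to test in both kidney experiments. Camk2d averaged 59.4 ± 4.66 CPM in low-salt and 57.9 ± 3.96 CPM in high-salt kidneys (SD, n = 4 each), and Atp2a2 272 ± 23.0 CPM in low-salt and 310 ± 46.4 CPM in high-salt kidneys, both with overlap. With aldosterone none of 8 genes was called, and edgeR called 0% of all 17671 genes, with 9.90% at an unadjusted p under 0.05 and 2.11% called by DESeq2. None of the 8 was without overlap, against 5.09% of all genes. At an unadjusted p under 0.05, Ryr2 alone among the 8 was higher, at 0.66 ± 0.25 CPM in aldosterone kidneys and 0.33 ± 0.16 CPM in control kidneys (log2 1.05 ± 0.38 SE, edgeR adjusted p 0.419), on 12.1 to 27.3 counts against 5.18 to 15.2. Ryr2 passed the count filter through the aldosterone group, where it was higher, so nothing is read from its p.

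The wider pathway was followed in 83 genes of calcium entry, release, uptake, extrusion, signalling and sensing, a list that includes the 10. In heart 78 were tested and edgeR called none, against 0.0517% of all genes. DESeq2 called 2 higher and 1 lower, against 1.96% of all genes. The median log2 fold change was -0.0039, against -0.0081 over all genes. DESeq2 called Pde4b and Pde4d, phosphodiesterases that break down cyclic AMP, and Rcan1, an inhibitor of calcineurin that is itself induced by calcineurin signalling. These were named after their values were seen.

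Pde4b ranged from 46.0 to 56.2 CPM (median 50.5) in low-salt hearts and from 27.7 to 39.6 CPM (median 36.3) in high-salt hearts, with no overlap (log2 0.55 ± 0.08 SE, edgeR adjusted p 0.0912, DESeq2 1.13e-05). Pde4d averaged 95.2 ± 10.6 CPM in low-salt and 70.1 ± 11.8 CPM in high-salt hearts (SD, n = 4 each), with overlap (0.45 ± 0.12, edgeR adjusted p 0.271). Rcan1 ranged from 281 to 317 CPM in low-salt hearts and from 431 to 715 CPM in high-salt hearts, with no overlap (-0.79 ± 0.13, edgeR adjusted p 0.105, DESeq2 3.26e-07). Rcan1, Pde4b and Pde4d thus had larger fold changes in heart than Rrad, and all of these, Rrad included, missed the edgeR threshold.

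In kidney on low salt, 71 of the 83 genes were tested, and edgeR called 2 higher and 2 lower, against 2.46% of all genes. DESeq2 called 6 higher and 7 lower, against 9.19% of all genes. Besides Rrad, Itpr1, the inositol trisphosphate receptor that releases calcium from the endoplasmic reticulum, rose to 217 ± 3.46 CPM in low-salt kidneys, against 171 ± 10.03 CPM in high-salt kidneys (log2 0.35 ± 0.06 SE, edgeR adjusted p 0.0289). Fkbp1a, a binding protein of calcium release channels, fell to 144 ± 10.1 CPM in low-salt kidneys, against 193 ± 12.4 CPM in high-salt kidneys (-0.43 ± 0.07, adjusted p 0.0374). Atp2a1, the pump isoform of fast skeletal muscle, fell to 0.42 ± 0.06 CPM in low-salt kidneys, against 1.499 ± 0.362 CPM in high-salt kidneys (-1.81 ± 0.26, adjusted p 0.0207). Its low-salt libraries held few counts, at 0.335 to 0.457 CPM. These 3 were named after their values were seen. With aldosterone 70 were tested and none was called. There edgeR called 0% of all 17671 genes and DESeq2 2.11%.

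**Figure D5:**
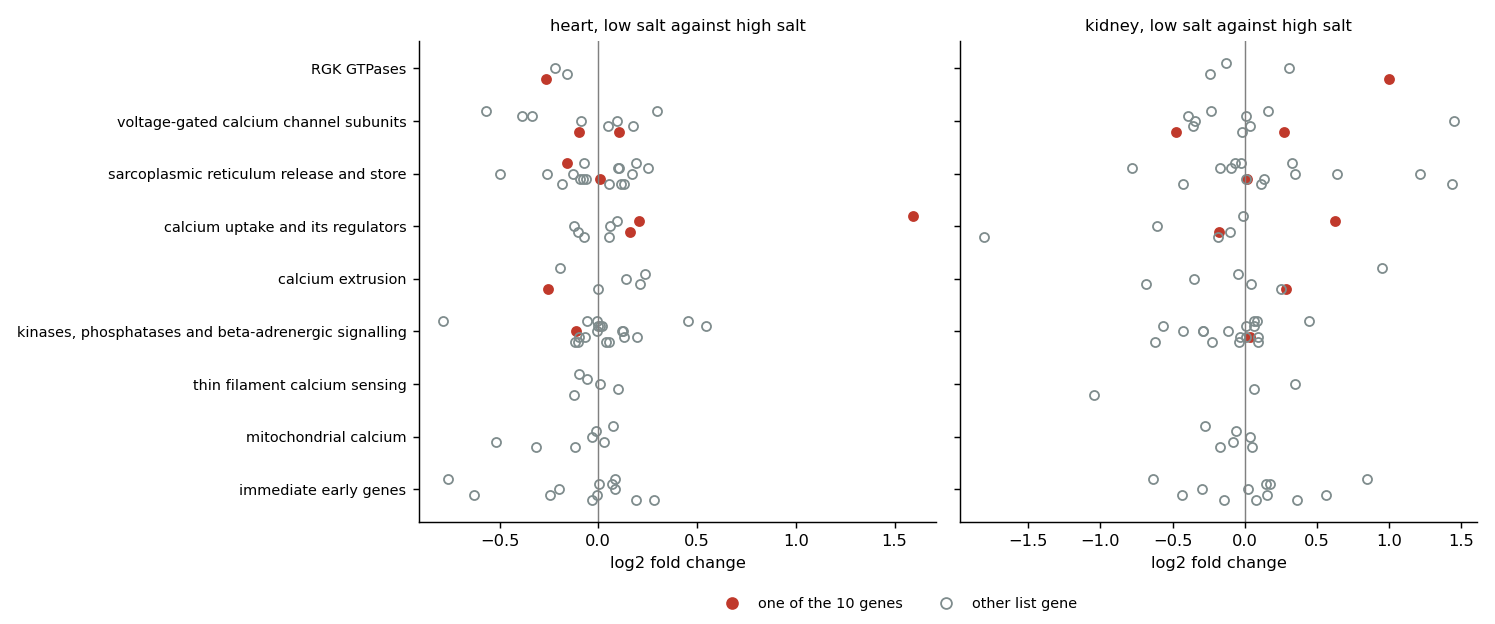
Log2 fold change of each tested gene of the calcium lists and of the immediate early genes, on low against high salt, in heart (left) and kidney (right), with the 10 genes filled. Apart from Sln, whose counts were few, the heart values lie within 0.79 of 0, and the kidney values spread wider.

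Besides the calcium genes, 12 immediate early genes, which respond fast to stimulation, were examined. In heart none was called by edgeR, against 0.0517% of all genes, or by DESeq2, against 1.96%. Their summed level was 230 to 279 CPM in low-salt and 226 to 278 CPM in high-salt hearts. In kidney on low salt edgeR called none of the 12, against 2.46% of all genes, and DESeq2 called 1 higher (Btg2) and 1 lower (Dusp1), against 9.19%.

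The genes whose levels were most like those of Rrad over the 8 heart libraries were sought among 12609 genes by Pearson's r of log2 CPM. The highest were Znhit6 (0.98), Wsb2 (0.97), Lamc1 (0.94), Aldoc (0.93) and Rgs18 (0.92), and the lowest were Wtap (-0.97), Ift122 (-0.96) and Vopp1 (-0.96). None of these 8 was called between diets. After the means of diet and batch were removed, r was 0.96 for Znhit6, 0.95 for Wsb2, 0.84 for Lamc1, 0.80 for Aldoc and 0.76 for Rgs18. It was -0.98 for Wtap, -0.90 for Ift122 and -0.93 for Vopp1. These genes were picked as the extremes of 12609, so a high r is in part due to the picking. Within the set, Slc8a1 had r = 0.74 and Casq2 r = 0.72 with Rrad, and after diet and batch were removed 0.37 and 0.81. The 8 points share diet, batch and scaling, and the values are a description.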

How the data were processed

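Per the labels' protocols, a TruSeq stranded kit for mRNA was used and reads were single-end (NovaSeq X Plus). Tools named in the submitters' processing notes were Salmon, Trimmomatic, MultiQC and bcl2fastq 2.19. The genome build, annotation and setting for strand were not given in the sources used here. Unscaled expected counts per gene were deposited by the authors in 3 tables, 1 for each tissue and experiment. All 36856 symbols occur in a RefSeq table of GRCr8, used for names and promoter windows.

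Expected counts were rounded. Each table was fitted with edgeR 4.0.16 in R 4.3.3: filterByExpr with a minimum count of 10, TMM scaling, batch as a term, and the quasi-likelihood test with Benjamini-Hochberg adjustment over all genes tested and a threshold of 0.05. Differences between tissues were an interaction over 16 libraries with an intercept per table and batch. Batch differences used log2(CPM + 0.5), and correlations a prior count of 2. DESeq2 1.42.0, other scalings and filters, single batches, no batch term, a replicate block and leaving out each library were alternatives. The edgeR fits were tested on simulated data.

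The 10 genes, the lists and the tests were chosen with earlier results of these data known. The naming rule took the 10 genes, the other RGK genes, list members past the threshold in heart, and the 5 most and 3 least correlated with Rrad. Replicates 1 and 2 are batch 1 and replicates 3 and 4 batch 2, per the labels. In heart, deviations of libraries with the same replicate number in the 2 diets correlated at 0.223, 0.296, 0.290 and 0.237 for numbers 1 to 4. Only 1 of 4 libraries correlated best with its own number and batch was shared, so pairing of the diets by number was not shown. The labels name 4 rats per treatment and no further source of replication, so p-values measure the spread between these samples. No 2 libraries of a group agreed within sampling noise.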

Additional observations from a re-analysis of the deposited data

Results flagged for a closer look

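The Rrad difference between tissues, -1.265 on the log2 scale (low-salt response in heart minus that in kidney), was past the threshold for a difference between the responses. Rrad was chosen from the contrasts that make up this difference, so the value describes it, and the call was lost without a batch term. In 52 groups of 4 libraries, 3 held a library far from the others by Dixon's criterion, and chance gives about 1 in 20. These were Atp2a2 at 237.5 CPM in low-salt kidney replicate 1, below the others, Slc8a1 at 43.83 CPM in aldosterone kidney replicate 2, below the others, and Cacna1c at 6.302 CPM in aldosterone kidney replicate 3, above the others.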

How the results depend on the processing

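The call of Rrad in kidney was lost without a batch term (log2 0.97, adjusted p 0.0953), with the replicate block (1.01, 0.0544), in batch 1 alone (1.13, 0.191) and in batch 2 alone (0.87, 0.0510), and held in the other 5 settings. Leaving out 1 library gave 0.89 to 1.10, with the call kept in 5 of 8 fits. Rrad's difference between tissues was -1.24 (adjusted p 0.0869) without a batch term and -1.37 to -1.15 with 1 library left out. Rrad with aldosterone turned to 0.00701 in batch 2 alone and ran from -0.26 to 0.0548 with 1 library left out. In heart Rrad stayed negative in every fit, at -0.31 to -0.20 with 1 library left out.

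Counts of calls over all genes moved most. In heart they were 303 with DESeq2, 85 without a filter, 1 without a batch term, 0 with the replicate block, 1 in each batch alone and 1 to 8 with 1 library left out. In kidney on low salt they were 1695 with DESeq2, 165 without a batch term, 52 with the block, 0 in batch 1 and 240 in batch 2, and 2 to 423 with 1 library left out. With aldosterone they were 373 with DESeq2, 4 without a filter, 1 in batch 1 alone, and 0 to 2 with 1 library left out. The difference between tissues gave 821 with DESeq2, 14 without a batch term, 16 with the block and 11 to 194 with 1 library left out. Pairing by number was not shown for the kidney libraries either (correlations of -0.0428, 0.231, -0.0470 and -0.0232 in the diet experiment and 0.0794, 0.186, -0.0454 and 0.320 with aldosterone).

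No other gene of the set was called in any setting. Signs turned in heart for Ryr2 (-0.000237 with upper quartile scaling, -0.19 in batch 2, -0.0901 to 0.0907 with 1 library left out), Cacnb2 (0.26 in batch 1, -0.22 to 0.0192), Atp2a2 (-0.0662 in batch 2) and Cacna1c (-0.0253 in batch 2). In kidney on low salt they turned for Ryr2 (-0.0273 with the block, -0.0587 in batch 1, -0.27 to 0.20) and Camk2d (-0.0354 in batch 1, -0.00315 to 0.10). With aldosterone they turned for Cacna1c (-0.54 in batch 1, -0.12 to 0.70), Cacnb2 (-0.0589 to 0.13) and Slc8a1 (-0.000239 to 0.23). Between tissues Ryr2 turned (0.0266 without a batch term, 0.00656 with the block, -0.19 to 0.24). The cause of these changes was not tested. Genes under 1 CPM, such as Ryr2 and Pln in kidney and Atp2a1 in low-salt kidney, rest on few counts.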
